A study of Capra hircus with 12 samples.

Results

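The miRNA pools of cashmere goat skin at embryonic day 55 (E55) and embryonic day 65 (E65) were compared to describe how small RNA composition differed across the interval in which the primary hair follicle is initiated. The members were all miRNAs of the deposited small RNA table, which has 649 rows. Rows with an identical sequence were counted once, which left 586 distinct sequences, of which 294 reached 20 RPM (reads scaled to a common library total) in either library and are described singly. The other 292 did not reach 20 RPM in either library. They enter the counts over the 586 sequences and the summed levels of lists, with a few values given where a list or the E45 library calls for them. Shares given below as over all sequences are of the 294. A sheep miRNA name (prefix oar) stands on 151 rows, or 150 distinct sequences, and the other 436 sequences carry only a label made of a chromosome or contig and a running number. These are called here by that label.

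Skin was taken from the mid-flank of Inner Mongolia cashmere goat (Capra hircus) embryos. Each stage was 1 small RNA library made from a pool of 3 embryos, so the spread between embryos was not measured and no test was made. All intervals given are 95% intervals that cover counting error only. They are of the read ratio or, where called Wilson, of a share of the reads. An E45 library, also 1 pool of 3 embryos, is given for context. In pooled whole skin, fewer cells of a type and less RNA per cell cannot be told apart.

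miRNAs are short RNAs that guide Argonaute proteins to messenger RNAs, mainly by pairing of the seed (bases 2 to 8) with the target, and lower the output of those messenger RNAs. In skin, the miR-200 family marks epithelial cells, where it represses the transcription factors ZEB1 and ZEB2, while miR-143 and miR-199a are typical of mesenchymal cells. The DLK1-DIO3 domain is an imprinted region whose many miRNAs, in the miR-379/miR-410 cluster and antisense to RTL1, are expressed from the maternal chromosome and are abundant in embryonic tissue.

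The sequences with the largest differences are shown because most of them have no name in the table, with the seed in capitals. The first set, higher at E65, holds the miR-200 rows and sequences like them, 3 sequences whose labels are neighbours on one chromosome, and the abundant chr16_7465. oar-miR-200a, which did not reach 20 RPM, is shown only for comparison with chr5_2836.
oar-miR-200b: tAATACTGcctggtaatgatg
oar-miR-200c: tAATACTGccgggtaatgatgg
chr16_7396: tAATACTGtctggtaatgccgt
oar-miR-200a: aACACTGTctggtaacgat
chr5_2836: tAACACTGtctggtaaagatgg
chr4_2321: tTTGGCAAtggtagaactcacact
chr4_2323: tTTGGCACtagcacatttttgct
chr4_2325: tATGGCACtggtagaattcact
chr16_7465: tCCTTCATtccaccggagtctgt

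The second set, lower at E65, holds 5 of the sequences with large negative ratios, chosen for their higher level at E55, then oar-miR-133, a sequence like it, and a pair that share a seed.
chr24_10426: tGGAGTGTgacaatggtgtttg
chr10_4657: aTAAGACGaacaaaaggtttgt
chr18_7873: aCCACAGGgtagaaccacggac
oar-miR-431: tGTCTTGCaggccgtcatgcagg
chr13_6132: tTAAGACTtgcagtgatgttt
oar-miR-133: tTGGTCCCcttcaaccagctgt
chr23_9945: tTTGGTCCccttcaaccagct
chr23_9943: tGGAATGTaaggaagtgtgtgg
chr13_6312: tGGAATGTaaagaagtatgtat

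The RPM values were scaled to the summed reads of the table. A depth of 4125742 reads at E55 and 2344798 at E65 made 100% of the values whole reads, so that 1 read was worth 0.242 RPM at E55 and 0.426 RPM at E65. Differences are given as log2 ratios of RPM + 1, E65 to E55, or as plain folds of RPM. The minimum of 20 RPM thus stood for 82.5 reads at E55 and 46.9 reads at E65. At E55, 522 distinct sequences had more than 3 reads, against 453 at E65. The number at 0 was 15 at E55 and 38 at E65, which had fewer reads. The E45 library, whose depth of 2455491 reads was near that of E65, had 506 sequences above 3 reads and 18 at 0.

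The most abundant miRNAs were largely shared by both stages. Of the 20 most abundant sequences at each stage, 16 were in both sets. chr15_7001 led both libraries, with 12.7% of the reads of distinct sequences at E55 (Wilson 95% interval 12.6% to 12.7%) and 13.9% at E65 (13.8% to 13.9%). Its seed was that of oar-miR-99a, with which it shared its first 15 bases, and their sequences are shown for that reason.
chr15_7001: aACCCGTAgatccgaacttgt
oar-miR-99a: aACCCGTAgatccgatcttg

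The 10 most abundant sequences held 50.6% of the reads at E55 and 55.0% at E65. oar-miR-143 stood at 83128 RPM at E55 and 95670 RPM at E65, a log2 ratio of 0.20. oar-miR-21, known from growing and wounded epithelia, was at 32141 RPM and 52579 RPM, 1.64-fold higher at E65. Levels of oar-miR-411a-5p, a member of the miR-379/miR-410 cluster, were 82954 RPM and 48707 RPM, 1.70-fold lower at E65 and the largest difference among the 10 sequences of highest mean. The others of these 10 lay between -0.14 for oar-let-7i and 0.71 for oar-miR-21 on the log2 scale, and included chr8_4031, which shares its first 18 bases with oar-miR-27a, at 17706 and 28236 RPM, oar-miR-26a at 44002 and 56714 RPM and oar-miR-148a at 26625 and 36720 RPM.

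**Figure D1:**
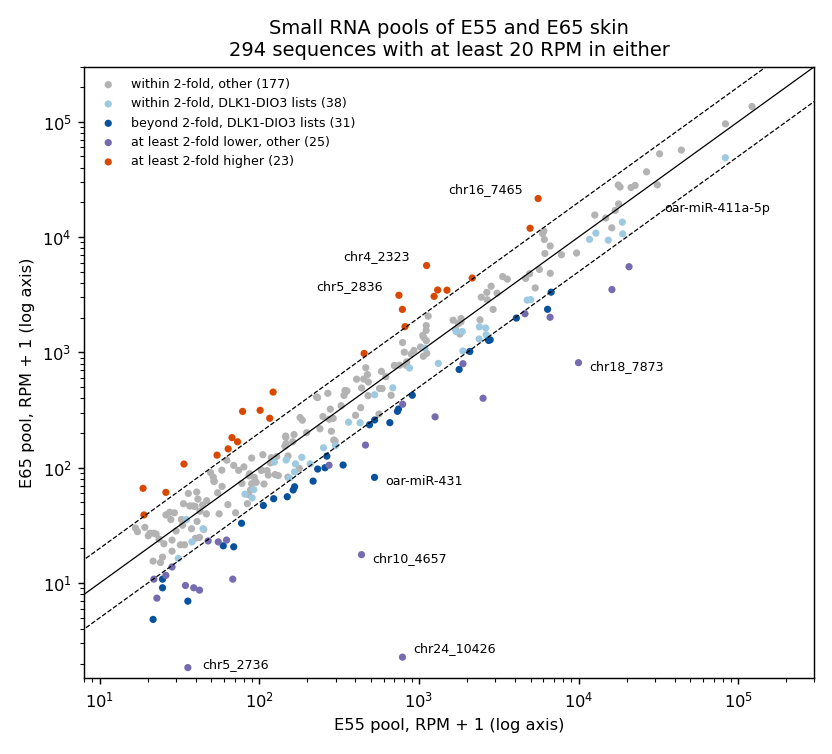
RPM + 1 of the 294 sequences with at least 20 RPM in either library, E55 on the x axis and E65 on the y axis, both log scales, with lines for equality and for 2-fold differences. Most points lie between the lines, while a few abundant sequences such as chr18_7873 (9974 RPM at E55, 813 RPM at E65) lie far below.

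Across the 294 sequences, the log2 ratio of RPM + 1 (E65 to E55) had a median of -0.12 and quartiles of -0.77 and 0.35. Of these, 130 (44.2%) were higher at E65 and 164 (55.8%) lower by any amount. A 2-fold difference was reached by 23 sequences in the higher direction (7.82%) and by 56 in the lower direction (19.0%), while 154 (52.4%) lay within 1.5-fold. The counting interval lay away from equality for 244 sequences, which says only that the reads of these libraries differed. Of the 28 sequences that reached 20 RPM at one stage only, 21 at E55 and 7 at E65, where the minimum itself favours a difference, 2 were at least 2-fold higher and 16 lower, and among the 266 that passed at both stages the counts were 21 and 40. The correlation of the log2 values across the 294 sequences was 0.940 (Pearson) and 0.940 (Spearman), as a description across sequences that share a library and a depth.

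The miR-200 family stood among the sequences with the largest positive ratios. oar-miR-200b, which keeps the epithelial state, was at 121 RPM at E55 and 451 RPM at E65, 3.73-fold higher (3.35 to 4.16). oar-miR-200c was at 77.6 RPM and 307 RPM, 3.95-fold higher (3.46 to 4.52). Both rows and chr16_7396, the third sequence with their seed (62.8 RPM and 145 RPM), were higher at E65 and at least 2-fold so, beside 44.2% higher and 7.82% at least 2-fold higher over all sequences, and their summed level was 261 RPM at E55 and 902 RPM at E65. The oar-miR-200a row, by contrast, was at or under 3 reads in both libraries, and its level is not interpreted. chr5_2836, which shares a run of 15 bases with oar-miR-200a, was at 748 RPM and 3125 RPM, 4.18-fold higher (4.01 to 4.36). The run starts later in chr5_2836 than in the oar-miR-200a row, so their seeds as counted here are offset and not the same. At E45, oar-miR-200b and oar-miR-200c stood at 76.6 RPM and 41.5 RPM, below their E55 levels, and chr5_2836 at 445 RPM.

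**Figure D2:**
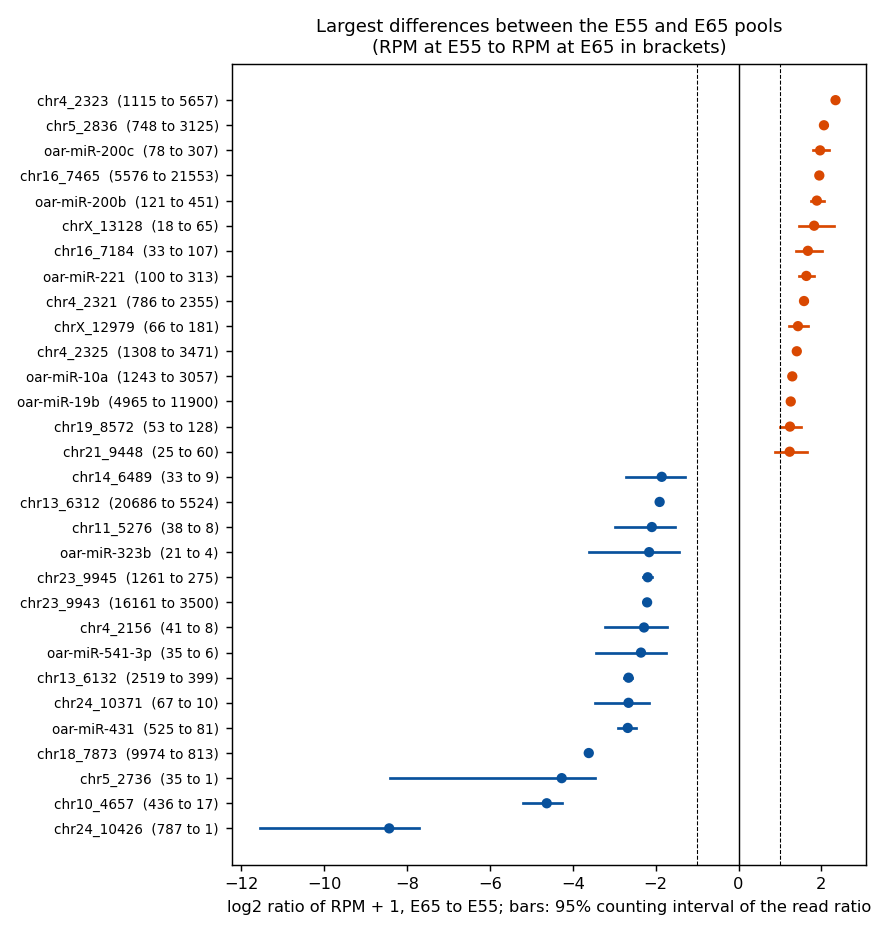
Log2 ratio of the 15 sequences with the largest positive and the 15 with the largest negative ratio among those with at least 20 RPM, as points for RPM + 1 with bars for the 95% counting interval of the read ratio. The bars do not measure the spread between embryos, and the widest belong to chr5_2736 and chr24_10426, with 2 and 3 reads at E65.

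chr16_7465 was the most abundant at E65 of the 23 sequences at least 2-fold higher. It stood at 5576 RPM at E55 and 21553 RPM at E65, 3.87-fold higher (3.81 to 3.93), after 2057 RPM at E45. Its sequence had no named row with its seed.

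The 3 neighbouring chr4 labels differed in the same direction. chr4_2323 was at 1115 RPM at E55 and 5657 RPM at E65, 5.07-fold higher (4.91 to 5.25), which was the largest positive ratio among the 294 sequences. chr4_2325 was at 1308 and 3471 RPM (2.65-fold, 2.56 to 2.75) and chr4_2321 at 786 and 2355 RPM (3.00-fold, 2.87 to 3.13). These 3 had stood higher at E45 (6384, 6938 and 2922 RPM) than at E65, so their low level at E55 lay between 2 higher ones. chr4_2323 shares its seed with chrX_13128 (17.7 RPM and 65.3 RPM) and chr7_3428 (2454 RPM and 3005 RPM), and the 3 sequences together were at 3587 RPM at E55 and 8728 RPM at E65.

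The miR-17-92 cluster and its paralogues promote cell division. Of 5 rows found by name, 4 passed 20 RPM, 3 were higher and 1 lower, with a median log2 ratio of 0.63, and 1 was at least 2-fold higher, beside 44.2% higher and 7.82% at least 2-fold higher over all 294 sequences (median -0.12). oar-miR-19b was at 4965 RPM and 11900 RPM, 2.40-fold higher (2.35 to 2.44). chr12_5779, which shares its seed and is the same at 22 of 23 positions, was at 817 RPM and 1671 RPM. Among labels close to it in number, chr12_5778 and chr12_5785 were lower at E65, chr12_5785 with a log2 ratio of -0.33. chr12_5782, which has the seed of oar-miR-17-5p, was higher at 0.40. Whether these unnamed sequences are of the cluster was not tested. oar-miR-106b (463 and 734 RPM) and oar-miR-17-5p (39.5 and 60.6 RPM) lay at 0.66 and 0.60 on the log2 scale. oar-miR-25 was at 103 and 94.3 RPM, a log2 ratio of -0.12.
oar-miR-19b: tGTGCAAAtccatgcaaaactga
chr12_5779: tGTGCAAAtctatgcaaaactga

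The miR-15/16 seed, whose members restrain cyclins, was carried by oar-miR-16b and 3 unnamed sequences, all higher at E65 with a median log2 ratio of 1.01, and 2 of them at least 2-fold higher, beside 44.2% higher and 7.82% at least 2-fold higher over all 294 sequences. oar-miR-16b was at 115 RPM and 267 RPM. chrX_12818 was the most abundant of the 4, at 1496 and 3458 RPM. chr12_5865 and chr1_479 had log2 ratios of 0.81 and 0.72.

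Other named miRNAs beyond 2-fold higher were oar-miR-221, oar-miR-10a and oar-miR-103. oar-miR-221, which represses the cell cycle inhibitor CDKN1B and the receptor KIT, was at 100 RPM and 313 RPM, 3.13-fold higher (2.77 to 3.54). chrX_12979, which shares its seed, was at 66.4 and 181 RPM. oar-miR-10a, which lies in a HOX cluster, was at 1243 and 3057 RPM (2.46-fold). oar-miR-10b (6049 and 11283 RPM) lay under the 2-fold line at a log2 ratio of 0.90. oar-miR-103 (452 and 977 RPM) lay at 1.11.

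The list of miR-10, miR-99, miR-100 and miR-125 rows had 4 members, all passing. Of these 3 were higher and 1 lower (oar-miR-125b, 5678 and 5230 RPM), with a median log2 ratio of 0.58, beside 44.2% higher over all sequences. oar-miR-23a and oar-miR-27a, which are cut from one primary transcript, were at 5954 and 10682 RPM and at 6098 and 9506 RPM, a median of 0.74.

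The let-7 family, which marks differentiation and is held down by LIN28 in early embryos, had 6 of 7 rows above 20 RPM. Of these 5 were higher and 1 lower, 0 reached 2-fold, and the median log2 ratio was 0.40, beside 44.2% higher and 7.82% at least 2-fold higher over all sequences. oar-let-7b was at 227 and 409 RPM (1.80-fold), while the most abundant member, oar-let-7i, was at 31123 and 28325 RPM. The summed level was 48536 RPM at E55 and 50320 RPM at E65.

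The skin label was checked against marker miRNAs. Of the epidermal markers, miR-200b and miR-200c passed 20 RPM and miR-203, miR-205, miR-141 and miR-429 had no row by name. Of the dermal ones miR-143 and miR-199a-3p were abundant, while miR-214 and miR-145 had no row by name. oar-miR-29a passed 20 RPM but not the alternative minimum of 100 RPM, and lay at -0.41 on the log2 scale. Unnamed sequences were not matched to markers, so a marker without a named row may still be among them. Dermal and mesenchymal miRNAs had mostly small ratios. Of 8 rows found, 7 passed, 5 were higher and 2 lower, with a median of 0.20, beside 44.2% higher and 55.8% lower over all sequences. oar-miR-199a-3p was at 22583 and 27995 RPM and oar-miR-152, which represses the DNA methyltransferase DNMT1, at 9710 and 7255 RPM. The hair-related list had 3 rows (oar-miR-125b, oar-miR-218a and oar-miR-22-3p) with a median of 0.09, and the miR-30 and miR-26 list had 7, 5 higher and 2 lower (6 and 1 with median scaling), with a median of 0.02. The 6 sequences with the miR-30 seed were all higher, with a median of 0.17, led by chr3_1729 at 21287 and 26840 RPM.

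**Figure D3:**
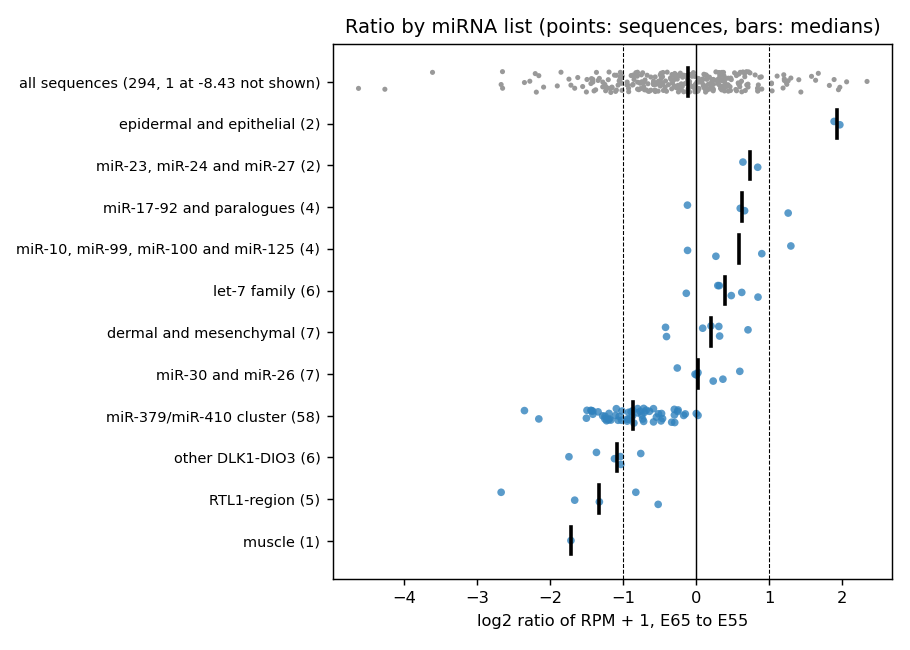
Log2 ratio of RPM + 1 (E65 to E55) of each list member with at least 20 RPM, one row per list, with the list's median. Members of the 3 DLK1-DIO3 lists lie almost entirely below 0, the miR-200 rows near 1.9, oar-miR-133 at -1.72, and the medians of the other lists between 0.02 and 0.74.

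miRNAs of the DLK1-DIO3 domain were lower at E65 almost throughout. Of 98 distinct sequences found by name, 69 passed 20 RPM, and 67 of these were lower and 2 higher, 31 of them at least 2-fold lower. The background in the same direction was 55.8% lower by any amount and 19.0% at least 2-fold lower. The 2 that were higher, oar-miR-376b-5p and oar-miR-544-5p, had log2 ratios of 0.02 and 0.00. The summed level of the 98 sequences was 226665 RPM at E55, 23.6% of the reads of distinct sequences, and 138393 RPM at E65, 14.2%. It had been 151211 RPM at E45. Since the values are shares of one total, a lower share of these sequences is a higher share of others, and the values hold no absolute amounts.

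Within the miR-379/miR-410 cluster, 58 of 84 distinct sequences passed and 56 were lower, 23 by at least 2-fold, with a median log2 ratio of -0.87, beside 55.8% lower and 19.0% at least 2-fold lower over all sequences. oar-miR-410-3p was at 6389 and 2361 RPM, 2.71-fold lower. oar-miR-655-3p, at 6728 and 3322 RPM, lay at the 2-fold line with -1.02. Abundant members closer to equality were oar-miR-379-5p (11696 and 9537 RPM) and oar-miR-494-3p (12824 and 10799 RPM). oar-miR-381-3p, at 732 and 307 RPM, had stood at 156 RPM at E45.

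Antisense to RTL1, 5 of 6 rows passed and all 5 were lower, 3 by at least 2-fold, with a median of -1.33, beside 55.8% lower and 19.0% at least 2-fold lower over all sequences. oar-miR-431 was at 525 RPM at E55 and 81.5 RPM at E65, 6.45-fold lower (5.56 to 7.52). oar-miR-433-3p was at 334 and 104 RPM and oar-miR-432 at 1783 and 710 RPM. oar-miR-127, the most abundant of them, was at 18873 and 10632 RPM, 1.78-fold lower. The other DLK1-DIO3 rows, such as oar-miR-370-3p (2791 and 1283 RPM), had 6 passing of 8, all lower, 5 by at least 2-fold, with a median of -1.08. At E45, oar-miR-431 stood at 502 RPM and oar-miR-432 at 1716 RPM, close to their E55 levels, whereas oar-miR-127 stood at 9994 RPM, and the summed level of the 6 RTL1-region sequences was 14413 RPM at E45 and 23913 RPM at E55.

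Both arms of one hairpin could be followed for 46 named hairpins, of which 19 had both arms at 20 RPM or more in either library. Of these 19, 18 were from the DLK1-DIO3 lists (all but miR-30a), so the counts largely repeat those of that domain. In 17 of the 19 both arms were lower at E65, where 55.8% of all 294 sequences were lower, in 0 both were higher, and in 2 (miR-30a and miR-376b) the arms differed in direction. The log2 ratios of the arms differed by a median of 0.40, and in 15 of the 19 the 3p arm had the lower ratio. miR-379 arms lay at -0.29 and -0.30 and those of miR-493 at -1.03 and -1.04, whereas miR-541 had the widest gap, with -1.25 for the 5p arm and -2.36 for the 3p arm.

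**Figure D4:**
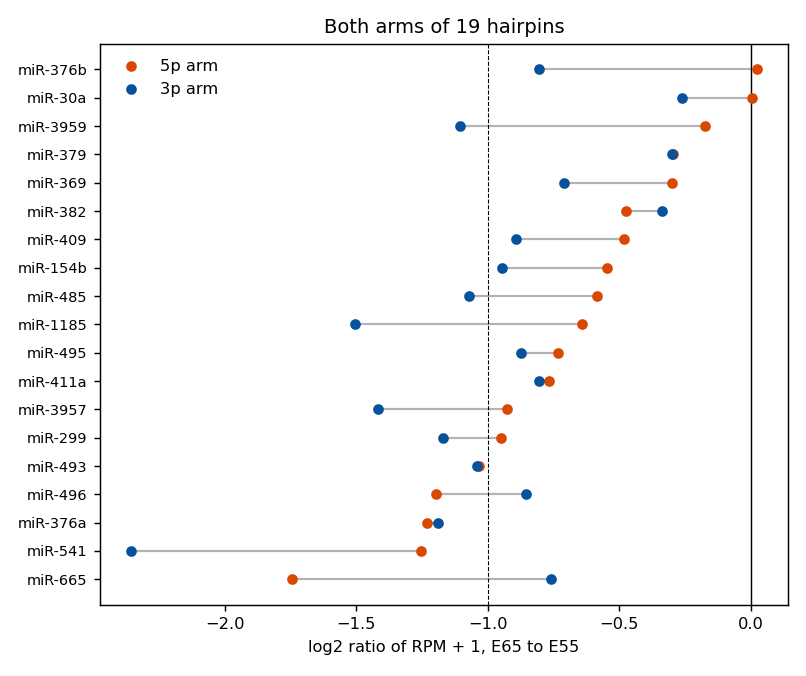
Log2 ratio of the 5p and the 3p arm of the 19 hairpins with both arms at 20 RPM or more in either library, with a line joining the arms. In 17 hairpins both points lie below 0.

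oar-miR-133, a miRNA of striated and heart muscle, was at 6623 RPM at E55 and 2013 RPM at E65, 3.29-fold lower (3.19 to 3.39). At E45 it stood at 3106 RPM. It was the only member of the muscle list found by name, and other members may be among the unnamed sequences, which were not matched to the list. chr23_9945, which shares a run of 20 bases with oar-miR-133, was at 1261 and 275 RPM, 4.58-fold lower (4.22 to 4.98). The run starts later in chr23_9945 than in oar-miR-133, so their seeds as counted here are offset and not the same. chr23_9943 and chr13_6312 share a seed and their first 10 bases. chr23_9943 was at 16161 and 3500 RPM, 4.62-fold lower (4.51 to 4.73), and chr13_6312 at 20686 and 5524 RPM, 3.74-fold lower (3.68 to 3.81). The part of muscle in the other differences was not tested. The leukocyte list had 1 row, oar-miR-150, at 8.24 and 13.7 RPM, and the neuronal, erythroid, endothelial, melanocyte, liver and endocrine lists had 0 rows found by name, so a member may still be among the unnamed sequences.

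By the log2 ratio of RPM + 1, the 4 most negative values belonged to unnamed sequences, and that of oar-miR-431 came next, ahead of chr13_6132. This order depended on the pseudocount. With 10, chr5_2736 lay at -2.04 and oar-miR-431 at -2.55, behind chr13_6132 at -2.63. With 0.1, chr24_10371 at -2.76 came ahead of oar-miR-431 at -2.69. chr24_10426 was at 787 RPM at E55 (3248 reads) and 1.28 RPM at E65 (3 reads), at least 210-fold lower (interval 210 to 2985). chr18_7873 was at 9974 RPM at E55 and 813 RPM at E65, 12.3-fold lower (11.7 to 12.9), and had been at 15551 RPM at E45. chr10_4657 was at 436 and 16.6 RPM (26.2-fold, 19.1 to 37.0) and chr13_6132 at 2519 and 399 RPM (6.31-fold, 5.90 to 6.75). chr5_2736 had 143 reads at E55 and 2 at E65, at least 11.0-fold lower (interval 11.0 to 339).

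The other sequences among the 15 largest negative ratios were of low level. chr24_10371 was at 67.1 and 9.81 RPM, chr4_2156 at 41.2 and 7.68 RPM and chr11_5276 at 37.8 and 8.10 RPM. oar-miR-541-3p (34.7 and 5.97 RPM) and oar-miR-323b (20.6 and 3.84 RPM), both of the miR-379/miR-410 cluster, were in this set too. chr14_6489 was at 33.5 and 8.53 RPM but had stood at 2144 RPM at E45, so that its level at E55 was already far below that at E45. At the other end, chr16_7184 (32.7 and 107 RPM), chr19_8572 (53.3 and 128 RPM) and chr21_9448 (24.97 and 60.1 RPM) completed the 15 largest positive ratios, with folds of 3.26, 2.39 and 2.41.

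Seeds carried by 3 or more of the 294 sequences were compared member by member, beside 44.2% higher and 55.8% lower over all 294. All 5 with seed AAAGTGC, that of oar-miR-17-5p and oar-miR-106b, were higher, between 0.13 and 0.66 on the log2 scale. Its most abundant member, chr12_5782, was at 2830 and 3743 RPM. The 3 with AAACCCG were higher, with a median of 0.87, and those with ACATTCA, the oar-miR-181a seed, had a median of 0.39 with 2 higher and 1 lower. oar-miR-181a, a miRNA of lymphocyte development, was at 18192 and 27113 RPM.

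Over all 294 sequences 44.2% were higher and 55.8% lower. The 5 sequences with AGTGCAA had a median of 0.03, the 3 with ATTGCAC of -0.33, and the 3 with CAGTGCA, that of oar-miR-148a and oar-miR-152, of -0.04, which became 0.05 with median scaling. Members of CAGTGCA differed in direction, with oar-miR-148a at 0.46 and oar-miR-152 at -0.42. The 3 with TCATAGA and the 3 with ATCATAC, all from the DLK1-DIO3 lists, were lower, with medians of -0.80 and -0.95. oar-miR-376a-3p was at 122 and 52.9 RPM and oar-miR-154a-3p at 489 and 235 RPM. The let-7 seed GAGGTAG was carried by 8 sequences, 6 higher and 2 lower, with a median of 0.31.

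**Figure D5:**
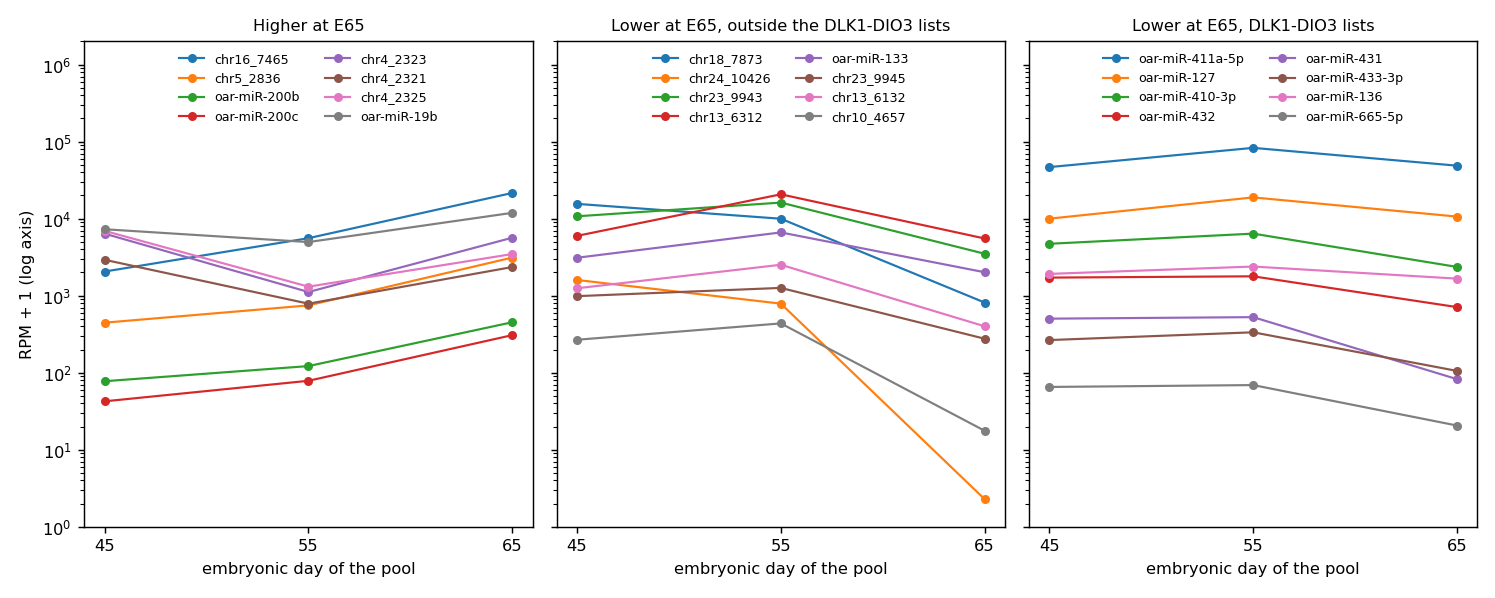
RPM + 1 on a log scale at E45, E55 and E65 for selected sequences, with one point a library and no error between embryos. The 3 chr4 sequences are low at E55, the miR-200 rows are highest at E65, and chr18_7873 is lowest at E65.

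Of the 23 sequences at least 2-fold higher at E65, 16 were higher at E45 than at E55 and 7 lower, and 4 were at or above their E65 level at E45. Over all 294 sequences, 182 (61.9%) were higher at E45 than at E55, 112 (38.1%) lower, and 204 (69.4%) at or above their E65 level at E45. Of the 56 at least 2-fold lower, 33 were lower at E45 than at E55 and 23 higher, and 54 were at or above their E65 level at E45. The 23 and the 56 were chosen by their E55 and E65 values. Comparisons of E45 with E55 share the E55 library, and those of E45 with E65 share the E65 library. The error of the shared library thus enters both the choice and the count, and these counts depend in part on the choice itself.

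Of the 23 higher sequences, 15 (65.2%) began with T, against 131 of 294 (44.6%) overall and 23 of 56 (41.1%) of the lower ones. The median length was 22 bases in each set, and the median GC content was 40.9% in the higher set, 46.5% in the lower set and 45.5% overall. None of the 23 was from the DLK1-DIO3 lists and 31 of the 56 were, beside 69 of all 294. Of the 56, 32 had a sheep name, beside 114 of all 294, and oar-miR-133 was the one of these from outside the DLK1-DIO3 lists. The 45 named sequences outside these lists had a median of 0.32 and the 180 unnamed ones of 0.03.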

How the data were processed

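Small RNA libraries were made by the authors from gel-selected RNA of pooled skin, and the deposited values are RPM (called TPM by the authors) for 649 rows in 3 libraries. The submitters' processing notes name Bowtie. Its version, the genome build and the miRNA caller are not given in the sources used here, nor is which library ran on which of the 2 instruments named, so instrument and stage cannot be told apart. Rows of identical sequence each carry the full value, and each was counted once. The depth was recovered as the number of reads that makes every value whole (100% within 0.05 reads). The intervals of the read ratio are exact Clopper-Pearson bounds on the split of the reads, and those of read shares are Wilson intervals. Ratios are log2 of RPM + 1, and folds are plain RPM ratios. The recovery and intervals were tested on simulated data. All per-sample columns of the table were used. A second table holds RPKM per gene and was not used here.

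With 1 pool a stage no test was made. The text names the 15 largest positive and 15 largest negative log2 ratios among sequences of at least 20 RPM, the 10 highest means, list members of at least 20 RPM and seed families with 3 or more such sequences. oar-miR-103, oar-miR-107, chr12_5778, chr12_5779 and the sequences high only at E45 were named after their values were seen. Members and lists were chosen with earlier results of these data known. Names were matched by sheep miRNA name alone, and oar-miR-133, which carries no letter, was taken for the muscle list. The alternatives were no filter, a minimum of 100 RPM, pseudocounts of 10 and 0.1, median scaling and counting every row. Python 3.11.15, numpy 2.4.6, pandas 2.3.3, scipy 1.17.1 and matplotlib 3.10.9 were used.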

Additional observations from a re-analysis of the deposited data

Results flagged for a closer look

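The E45 library, given above for context only, held 30 distinct sequences with at least 20 RPM that were under 20 RPM at both E55 and E65. Of these, 28 had no sheep name. chr16_7289 was at 248 RPM at E45, 4.85 RPM at E55 and 5.12 RPM at E65, and chr26_11027 at 211 RPM at E45 and 0.85 RPM at E65. The named ones were oar-miR-411b-3p (24.4, 19.6 and 13.7 RPM) and oar-miR-433-5p (21.2, 9.45 and 10.2 RPM). No control library was available, and each stage is 1 pool.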

How the results depend on the processing

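No paired analysis was possible because each stage is 1 pooled library with no replicate number. Of 26 medians (those of all sequences, of lists and of seeds), 1 changed sign under an alternative. Without the 20 RPM minimum, 40 sequences were at least 2-fold higher and 98 lower, and with a minimum of 100 RPM 37 were lower. The other alternatives left 22 or 23 higher and 47 to 62 lower. Without the minimum the medians were 0.15 for the dermal list, 0.64 for miR-23, miR-24 and miR-27 and -1.08 for the RTL1-region list. With median scaling, which adds 0.09 to each log2 ratio, they were 0.49 for let-7, 0.29 for the dermal list, 0.67 for miR-10 and related rows, 0.83 for miR-23, miR-24 and miR-27, -1.24 for the RTL1-region list, -0.99 for the other DLK1-DIO3 rows and -1.63 for the muscle list. For seeds it gave 0.49 (AAAGTGC), -0.24 (ATTGCAC), 0.0506 (CAGTGCA, -0.04 without it) and 0.40 (GAGGTAG). A minimum of 100 RPM gave -0.997 for seed TCATAGA and 1.32 for TTGGCAC, and left no sequence of seed AAACCCG. A pseudocount of 10 gave 1.44 for TTGGCAC. Of 387 values of single sequences under a pseudocount of 10 or 0.1 or median scaling, 319 stayed within the counting interval and 68 moved out of it, 58 of them under median scaling, and 1 changed sign (oar-miR-26b, to 0.07). Differences of low sequences are limited by depth: 3 reads are 0.727 RPM at E55 and 1.28 RPM at E65.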

Other observations

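The motif GAACTTTT, chosen after the sequences had been seen, stood on either strand in 56 of the 586 distinct sequences (9.56%), 50 as read and 6 as the reverse complement AAAAGTTC. None of the 56 had a sheep name, and 14 of the 47 sequences listed on more than 1 row held it. Among the 19 with at least 20 RPM, 13 were higher at E65 and 6 lower, with a median log2 ratio of 0.39, and 1 was at least 2-fold higher, beside 44.2% higher and 7.82% at least 2-fold higher over all 294 sequences.

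Among the 33 unnamed sequences of at least 20 RPM whose label begins with chrX, the median log2 ratio was -0.02, with 15 higher and 18 lower at E65, near the 44.2% higher and 55.8% lower over all 294 sequences. The miR-103 row stood at 2.16-fold higher, whereas oar-miR-107, which has the same seed, was at 338 and 423 RPM, 1.25-fold higher.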
